A study of Mus musculus with 9 samples.

Results

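The cytosolic ribosomal proteins are the protein subunits of the ribosome that translates nuclear-encoded mRNA. Their genes were taken from the table by symbol: every Ensembl mouse gene whose name starts with Rpl or Rps and a number, or is Rplp0, Rplp1, Rplp2 or Rpsa, without the pseudogenes that carry "-ps" and without the Rps6k kinases. This rule took 94 of 55414 Ensembl genes. It used names only and no expression value. Of the 94, 46 encode core proteins of the large subunit and 31 encode core proteins of the small subunit. Another 16 are paralogs or retained copies of core genes, such as Rpl36al, Rps27l and Rps12l1. The last, Rps19bp1, encodes a nucleolar protein that binds Rps19 and is not itself a ribosomal protein. Fau and Rack1 are examples of genes that encode ribosomal proteins under other names and fall outside the rule.

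RNA was measured in the livers of NSG mice, an immunodeficient strain without mature T, B and NK cells, whose genotype is given as WT in all 3 groups. Mice received tail-vein injections for 5 weeks of PBS, of extracellular vesicles (EVs) from MCF-10A cells, or of EVs from MDA-MB-231 cells. MDA-MB-231 is a breast cancer line and MCF-10A is a breast epithelial line that does not form tumours, both human. Each group has 3 libraries, and the labels give no age or sex and do not state whether the 3 come from separate mice, so p-values measure the spread between these libraries.

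A ribosome holds 1 copy of nearly every ribosomal protein, and the acidic stalk proteins Rplp1 and Rplp2 are exceptions that are present in more copies. Unassembled ribosomal proteins are degraded, and some of them, Rpl5 and Rpl11 in particular, can bind Mdm2 and stabilise p53 when assembly fails. Most ribosomal protein mRNAs start with a 5′ terminal oligopyrimidine (TOP) tract, through which mTOR and Larp1 adjust their translation to growth signals. Hepatocytes, which secrete most plasma proteins, carry a dense rough endoplasmic reticulum with many bound ribosomes. Mammalian genomes also hold many processed pseudogenes of ribosomal protein genes, which are intronless copies made by reverse transcription of their abundant mRNAs.

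The deposited values are TPM, in which each transcript's abundance is corrected for its length and given relative to the library's total. This unit keeps no read depth, so the depth is unknown. Between 17403 and 20070 Ensembl genes were above 0 in a library. The 3 MCF-10A EV columns list all assembled loci (features without an Ensembl gene) at 0, whereas these took 1.21% to 5.70% of the TPM in the PBS and MDA-MB-231 EV columns. The MCF-10A EV columns sum to 979351, 946777 and 934986 TPM, and the other 6 to 1000000 each. A handling difference confined to the MCF-10A EV columns and the EV treatment cannot be told apart. Hepatocyte markers were present in every library, with 9 of 10 listed markers found and a summed level of 63798 to 153823 TPM, and the 8 lymphocyte markers summed to 6.42 to 41.1 TPM. PBS 1 stood apart: mitochondrially encoded genes took 26.3% of its TPM, against 4.96% to 12.1% in the other 8 libraries. In bulk tissue, fewer cells of a type and less RNA per cell cannot be told apart.

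Summed over the 77 core genes, ribosomal protein mRNA took 2.42% to 4.87% of the TPM. In the PBS group the core sum was 24239 TPM in PBS 1, 46609 in PBS 2 and 37736 in PBS 3. In the MCF-10A EV group it was 43619, 43483 and 45489 TPM. In the MDA-MB-231 EV group it was 38611, 47488 and 48226 TPM. PBS 1 was the lowest of the 9 libraries and PBS 2 lay within the range of the EV groups, so the groups overlapped. The means were 36195 ± 11264 TPM in PBS, 44197 ± 1121 in MCF-10A EV and 44775 ± 5351 in MDA-MB-231 EV (SD, n = 3 each). With mitochondrially encoded genes left out of the total, PBS 1 was still lowest, at 34278 TPM, and the means were 43509 ± 10022, 50140 ± 3282 and 50291 ± 8279 TPM. PBS 1 held the lowest value of 58 of the 77 core genes, MDA-MB-231 EV 1 held the lowest of 12, and PBS 1 held the highest of none.

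**Figure D1:**
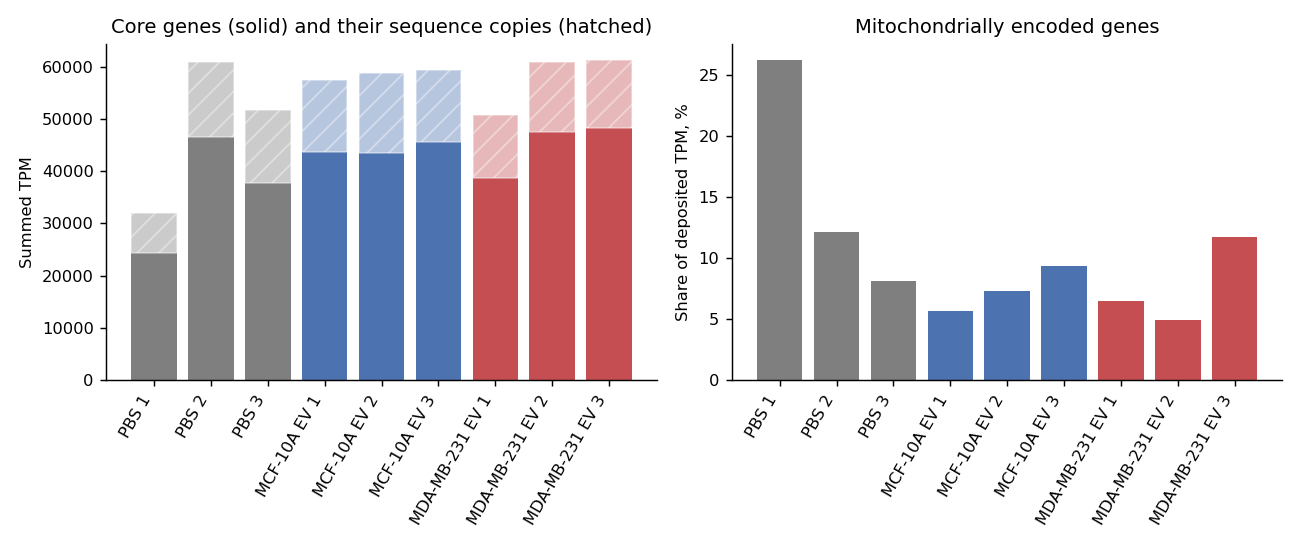
Left, summed TPM per library of the 77 core genes (solid) and of their sequence copies (hatched), coloured by group. Right, share of the TPM on mitochondrially encoded genes. PBS 1 has the smallest core sum (24239 TPM) and the largest mitochondrial share (26.3%).

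Genes whose proteins stand in the ribosome at equal number differed widely in level. The highest was Rpl36, a small protein of the large subunit, at a mean of 2362 TPM over the 9 libraries. Rpl13a, also known for a role in translational silencing outside the ribosome, followed at 2257 TPM, and then Rpl38 at 1470, Rps15 at 1392 and Rpl26 at 1274 TPM. The lowest core genes were Rpl12 at 16.7 TPM, Rps18 at 54.8, Rpl3 at 62.3, Rpl5 at 68.3 and Rps7 at 74.0 TPM. Between the highest and the lowest the ratio of means was 141. Rpl12 belongs to the base of the stalk, Rpl3 lines the peptidyl transferase region, and Rps18 sits in the head of the small subunit. All 77 core genes passed the filter of a mean of at least 1 TPM, as did 9 of the 16 paralogs and copies and Rps19bp1, which leaves 87 genes tested. The 7 not tested were Rpl3l, Rpl39l, Rpl10l, Rpl6l, Rpl32l, Rps3a2 and Rps3a3.

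The start sites of core genes were searched for the TOP tract, because this element is the shared regulatory feature of these mRNAs. A tract was taken as a C followed by at least 4 further C or T, starting within 5 bases of the RefSeq start on the sense strand of GRCm38.p6. Only the sense strand was searched, since the element is read in the mRNA. RefSeq windows were matched for 57 of the 77 core genes, some with several starts. The tract was present in 29 of their 67 windows, 43.3%, against 6027 of all 32851 windows of the same length, 18.3%. Below are 30-base windows from 6 genes described here, with the tract in capitals.
Rpl13a: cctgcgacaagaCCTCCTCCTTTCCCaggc
Rpl38: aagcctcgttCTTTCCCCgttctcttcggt
Rpl12: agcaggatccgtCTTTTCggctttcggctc
Rps18: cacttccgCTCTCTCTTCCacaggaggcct
Rps6: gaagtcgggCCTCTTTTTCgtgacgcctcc
Rps27: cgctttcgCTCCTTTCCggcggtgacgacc
They lie at chr7:45128726-45128755 (minus strand), chr11:114668570-114668599 (plus), chr2:32961702-32961731 (plus), chr17:33955646-33955675 (minus), chr4:86857348-86857377 (minus) and chr3:90213629-90213658 (minus). A match is a description of the letters, and a window without one says only that the letters are not there.

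Much of the signal of some ribosomal protein families lay on the rows of pseudogenes and other sequence copies. A copy was defined as a GENCODE M21 pseudogene, or a gene with "-ps" in its symbol, that matched at least 80% of a core coding sequence at 90% identity or more. There were 957 copies of 73 core genes, and 99 of them had a mean of at least 1 TPM. Rps3, Rpl8 and Rplp2 were among the core genes without a copy. Copies took 21.3% to 27.0% of the TPM of core genes and copies together, with 24.9% ± 1.9 in PBS, 24.5% ± 1.3 in MCF-10A EV and 22.4% ± 1.4 in MDA-MB-231 EV (SD, n = 3 each). For 15 core genes the copies held over 50% of the family's TPM and for 5 over 80%: Rpl12 (96.7%), Rps18 (96.2%), Rpl21 (87.5%), Rps7 (86.9%) and Rpl27a (82.5%). With the copies added, the ratio between the highest and lowest core gene was 11.9 instead of 141. Levels and changes of single rows in these families are uncertain, because the counting can divide reads between near-identical sequences.

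The coding sequences show how little separates a gene from its most abundant copy. Rps18-ps6, at a mean of 944 TPM, differs from Rps18 at 4 of 459 coding bases. GENCODE M21 lists Rps18-ps6 as protein coding, and it was taken as a copy by its symbol. Rps7-ps3, at 490 TPM, differs from Rps7 at 3 of 585 coding bases. Gm10275, at 496 TPM, does not differ from Rpl12 at any of 498 coding bases. The stretches below cover coding bases 157 to 186 of Rps18, 19 to 48 of Rps7 and 1 to 30 of Rpl12, with differing bases in capitals.
Rps18: accaagagggctggagaactcacggaggaT
Rps18-ps6: accaagagggctggagaactcacggaggaC
Rps7: aagatcgTgaagcccaatggcgagaagccG
Rps7-ps3: aagatcgGgaagcccaatggcgagaagccA
Rpl12: atgccgcccaagttcgaccccaacgaggtc
Gm10275: atgccgcccaagttcgaccccaacgaggtc
In GRCm38, Rps18 has 5 annotated exons at chr17:33951999-33956001 and Rps18-ps6 has 1 exon at chr13:97760072-97760632. Rps7 has 7 exons at chr12:28630854-28635953 and Rps7-ps3 has 1 exon at chrX:152909505-152910155. Rpl12 has 7 exons at chr2:32961559-32965345 and Gm10275 has 2 at chr10:29698746-29699380.

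**Figure D2:**
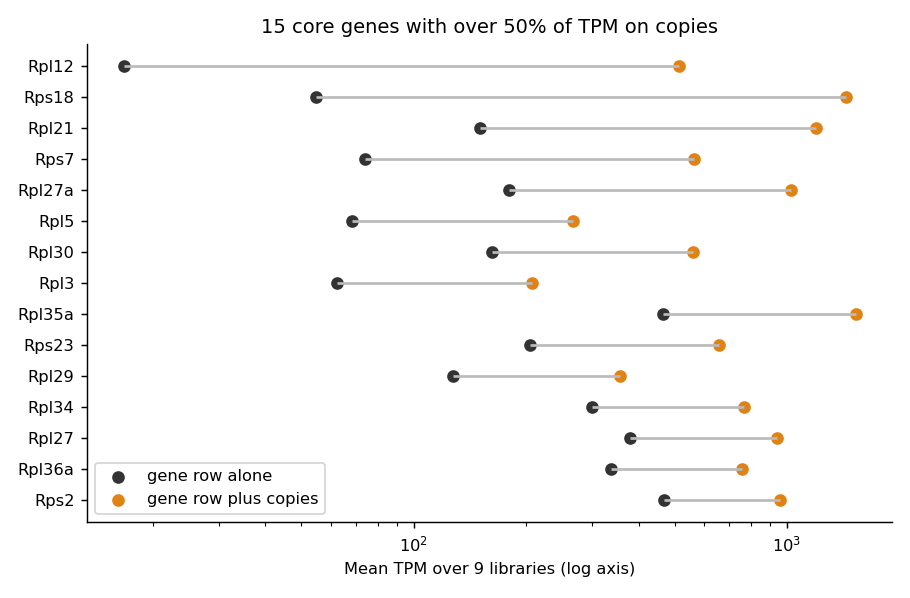
Mean TPM over 9 libraries (log axis) of the 15 core genes with over 50% of the family's TPM on copies, for the gene row alone and with its copies added. Rpl12 moves from 16.7 to 514 TPM and Rps18 from 54.8 to 1439 TPM.

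Rps18 shows the effect of the copies on the spread between libraries. Its own row held 68.2, 27.1 and 34.1 TPM in PBS, 17.6, 46.4 and 56.9 in MCF-10A EV, and 28.2, 19.0 and 196 in MDA-MB-231 EV. MDA-MB-231 EV 3 stood above all other libraries and the groups overlapped. With copies, the family held 1166, 1412 and 1600 TPM in PBS, 1083, 1653 and 1646 in MCF-10A EV, and 1233, 1326 and 1828 in MDA-MB-231 EV. The SD of log2 values over the 9 libraries was 1.06 for the row and 0.26 for the family. Over all 77 core genes the median SD was 0.50 without and 0.47 with copies. It was smaller with copies for 40 of the 77 genes, among them 11 of the 15 with over 50% on copies.

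The comparison of MDA-MB-231 EVs with PBS asks what vesicles of a cancer line do to the liver. Members were on the whole at higher values than in PBS, but no single gene passed the test and the shift was nearly absent without PBS 1. The median log2 change of the 87 tested members was 0.41, against 0.21 for all 12860 tested genes, and 74 of the 87 were above 0. Among core genes, 37 of 46 of the large subunit and 30 of 31 of the small subunit were above 0. The median of all tested genes was itself above 0, and 31 of the 46 and 25 of the 31 exceeded it. Without PBS 1, the median was 0.052 for members and 0.28 for all genes, and 50 of 87 were above 0. After quantile normalization the medians were 0.14 for members, with 56 of 87 above 0, and 0.035 for all genes, and with weighted libraries they were 0.20 and 0.24. With mitochondrially encoded genes left out of the total they were 0.28 and 0.099. With limma on log2(TPM + 1) and Benjamini-Hochberg adjustment over all tested genes, 0 members and 0% of all genes were called at an adjusted p under 0.05. At an unadjusted p under 0.05 there was 1 member, Rps7, where 1.55% of all genes passed.

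Rps7, a small subunit protein that also binds Mdm2, held 31.6, 50.4 and 22.4 TPM in PBS and 207, 71.2 and 98.8 in MDA-MB-231 EV. All 3 EV libraries lay above all 3 PBS libraries. The log2 difference was 1.75 ± 0.59 (SE; limma adjusted p = 1). Its copies, however, held 178, 600 and 564 TPM in PBS and 330, 568 and 404 in MDA-MB-231 EV. The family as a whole overlapped between groups, at a log2 difference of 0.37 ± 0.47 (limma adjusted p = 1), and without PBS 1 the family's difference was -0.15.

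The next members by p were Rpl3 at 1.21 ± 0.56, Rpl10a at 1.06 ± 0.51 and Rps3 at 1.41 ± 0.68 (log2 difference ± SE). Rps3, which lies at the mRNA entry of the small subunit and has a role in DNA repair, had no copy by the rule used. It held 61.4, 230 and 98.7 TPM in PBS and 524, 347 and 146 in MDA-MB-231 EV. MDA-MB-231 EV 3 lay below PBS 2, so the groups overlapped.

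Without any test, 7 of the 87 members had every MDA-MB-231 EV library above every PBS library, where 5.23% of all genes did. They are Rpl5, Rpl34, Rpl36a, Rps2, Rps6, Rps7 and Rps27. With copies added, Rpl5, Rpl36a, Rps2, Rps6 and Rps7 overlapped between these groups. Rpl34 with its copies did not, at 386, 819 and 622 TPM in PBS and 832, 875 and 904 in MDA-MB-231 EV. None lay wholly below PBS, where 0.801% of all genes did. Rps6, the substrate of the S6 kinases, held 222, 370 and 348 TPM in PBS and 567, 441 and 485 in MDA-MB-231 EV, with a log2 difference of 0.69 ± 0.38 (limma adjusted p = 1). With copies Rps6 summed to 235, 535 and 505 TPM in PBS and 753, 600 and 488 in MDA-MB-231 EV, which overlap. Rps27, a zinc finger protein of the small subunit with almost no signal on copies (0.025%), held 719, 1164 and 1168 TPM in PBS and 1278, 1309 and 1387 in MDA-MB-231 EV. Its log2 difference was 0.42 ± 0.38 (limma adjusted p = 1).

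**Figure D3:**
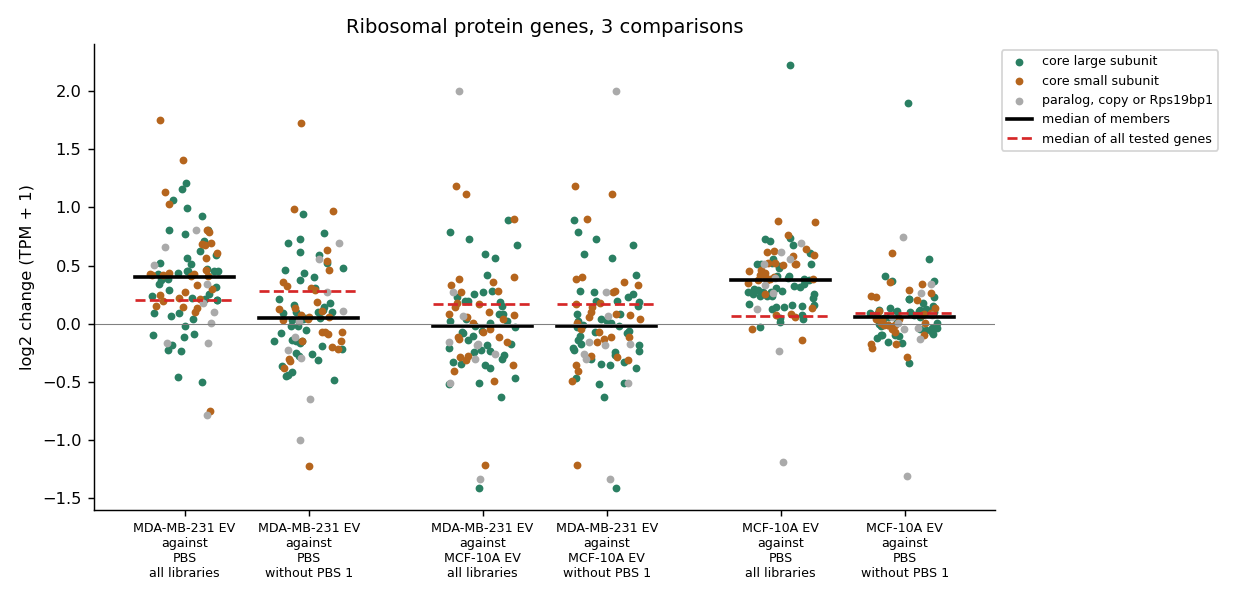
Log2 change (TPM + 1) of each of the 87 tested genes in the 3 comparisons, with all 9 libraries and without PBS 1. The black line is the median of the members and the dashed red line the median of all tested genes. Against PBS the member medians are 0.41 and 0.38 with PBS 1 and 0.052 and 0.056 without it.

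The comparison of MDA-MB-231 EVs with MCF-10A EVs sets the cancer line's vesicles against those of a non-tumorigenic line. Here the members were centred near 0 and 42 of 87 were above 0. Their median log2 change was -0.018, against 0.17 for all tested genes. By limma 0 members were called at an adjusted p under 0.05, where 0.218% of all genes were. At an unadjusted p under 0.05 there were 2 members, Rpl29 and Rps12l1, both lower in MDA-MB-231 EV, where 3.83% of all genes passed. The groups did not overlap for 2 higher members, Rpl8 and Rps27, against 4.73% of all genes, and for 2 lower members, Rpl29 and Rps23, against 1.8%. With copies added, Rpl29 and Rps23 overlapped. Adding copies also separated groups whose gene rows overlapped, such as Rps20 and Rps12, both lower in MDA-MB-231 EV. Rps12 with its copies held 997, 887 and 1058 TPM in MCF-10A EV and 651, 746 and 754 in MDA-MB-231 EV. Such separation with copies was not counted over all genes. Deviations of same-numbered libraries of both EV groups correlated at 0.34, 0.11 and 0.44. No label states a pairing, and PBS 1 and MDA-MB-231 EV 3, of unlike number, correlated at 0.62. A fit of the EV groups alone with a replicate block called 0 members and 12 genes in all, where 28 were called without a block and with all 3 groups. At an unadjusted p under 0.05 there were 6 members in the blocked fit, 3 of them higher in MDA-MB-231 EV, where 711 of all 12819 genes passed.

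Rps12l1, a copy of Rps12 that is annotated as a gene of its own, held 104, 185 and 262 TPM in MCF-10A EV and 42.4, 50.8 and 141 in MDA-MB-231 EV. MDA-MB-231 EV 3 lay between the MCF-10A EV libraries. The log2 difference was -1.34 ± 0.54 (limma adjusted p = 1), and with the replicate block -1.34 ± 0.36 (limma adjusted p = 0.783). Rps12l1 was lower in MDA-MB-231 EV in all 3 same-numbered pairs. As a member it was left out of the search for copies, and reads shared with Rps12 and its copies were not tested. Rps12-ps3, a copy without mismatch to Rps12, held 149, 255 and 404 TPM in MCF-10A EV and 44.4, 87.2 and 259 in MDA-MB-231 EV. Rps2, at the mRNA entry of the small subunit, held 696, 240 and 163 TPM in MCF-10A EV and 821, 877 and 445 in MDA-MB-231 EV, a log2 difference of 1.18 ± 0.57 (limma adjusted p = 1), and with the replicate block 1.18 ± 0.43 (limma adjusted p = 0.864). Rps2 was higher in MDA-MB-231 EV in all 3 pairs. Rps2 and its copies together held 1035, 944 and 749 TPM against 1060, 1378 and 921, so that the family's groups overlapped too. Rps20, which takes part in the head of the small subunit, held 55.1 TPM in MDA-MB-231 EV 1 against 137 to 498 in the other 8. In that library 74.8% of its family lay on copies, and with them Rps20 was lowest in PBS 1, at 140 TPM, and next in MDA-MB-231 EV 1, at 218 TPM. Between the EV groups the Rps20 family did not overlap, at 447, 453 and 513 TPM in MCF-10A EV and 218, 366 and 280 in MDA-MB-231 EV.

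The comparison of MCF-10A EVs with PBS asks what vesicles of a non-tumorigenic line do. Nearly all members were at higher values, 82 of 87 above 0, with a median log2 change of 0.38 against 0.07 for all tested genes. Among core genes, 42 of 46 of the large subunit and 28 of 31 of the small subunit exceeded the median of all tested genes. Without PBS 1 the median of the members was 0.056, against 0.10 for all genes, and 55 of 87 were above 0. It was 0.67 without PBS 2, 0.24 after quantile normalization and 0.18 with weighted libraries. By limma 0 members were called at an adjusted p under 0.05, where 0.194% of all genes were. At an unadjusted p under 0.05 there was 1 member, Rpl29, where 3.2% of all genes passed. The groups did not overlap for 3 higher members, Rpl29, Rpl37rt and Rps6, against 2.95% of all genes, and for no lower member, against 4.74%. With copies added, Rps6 overlapped. Both comparisons with PBS share the 3 PBS libraries.

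Rpl29, a small basic protein of the large subunit also known as a heparin-binding surface protein, had the smallest p of the members in this comparison. Its row held 31.2, 79.3 and 49.4 TPM in PBS, 238, 214 and 256 in MCF-10A EV, and 136, 87.7 and 56.4 in MDA-MB-231 EV. All 3 MCF-10A EV libraries lay above all 6 others. The log2 difference from PBS was 2.22 ± 0.46 (SE; limma adjusted p = 0.164) and that of MDA-MB-231 EV from MCF-10A EV was -1.42 ± 0.46 (adjusted p = 0.924). Rpl29 and Rpl37rt were called against PBS with libraries weighted by their fit, at adjusted p = 0.000229 and 0.0448 (limma with array weights). The weights were estimated without convergence and were 0.158, 0.507 and 45.0 for PBS 1, PBS 2 and PBS 3. The PBS side of these calls therefore rests almost wholly on PBS 3. The share of all genes called with these weights is not given here, so these calls are not set against it. Over the 25 alternatives the limma adjusted p of Rpl29 ranged from 0.000229 to 1. Rpl29 has 58 copies, which held 95.5, 309 and 208 TPM in PBS, 308, 179 and 164 in MCF-10A EV, and 307, 347 and 144 in MDA-MB-231 EV. The share of the family on the gene row was therefore larger in the MCF-10A EV columns, which are also those without assembled loci. Gene and copies together held 127, 388 and 257 TPM in PBS, 546, 394 and 420 in MCF-10A EV, and 443, 434 and 201 in MDA-MB-231 EV. The MCF-10A EV libraries still lay above those of PBS, by a narrow margin over PBS 2, and overlapped those of MDA-MB-231 EV. The family's log2 difference between MCF-10A EV and PBS was 0.94 ± 0.51 (limma adjusted p = 1).

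**Figure D4:**
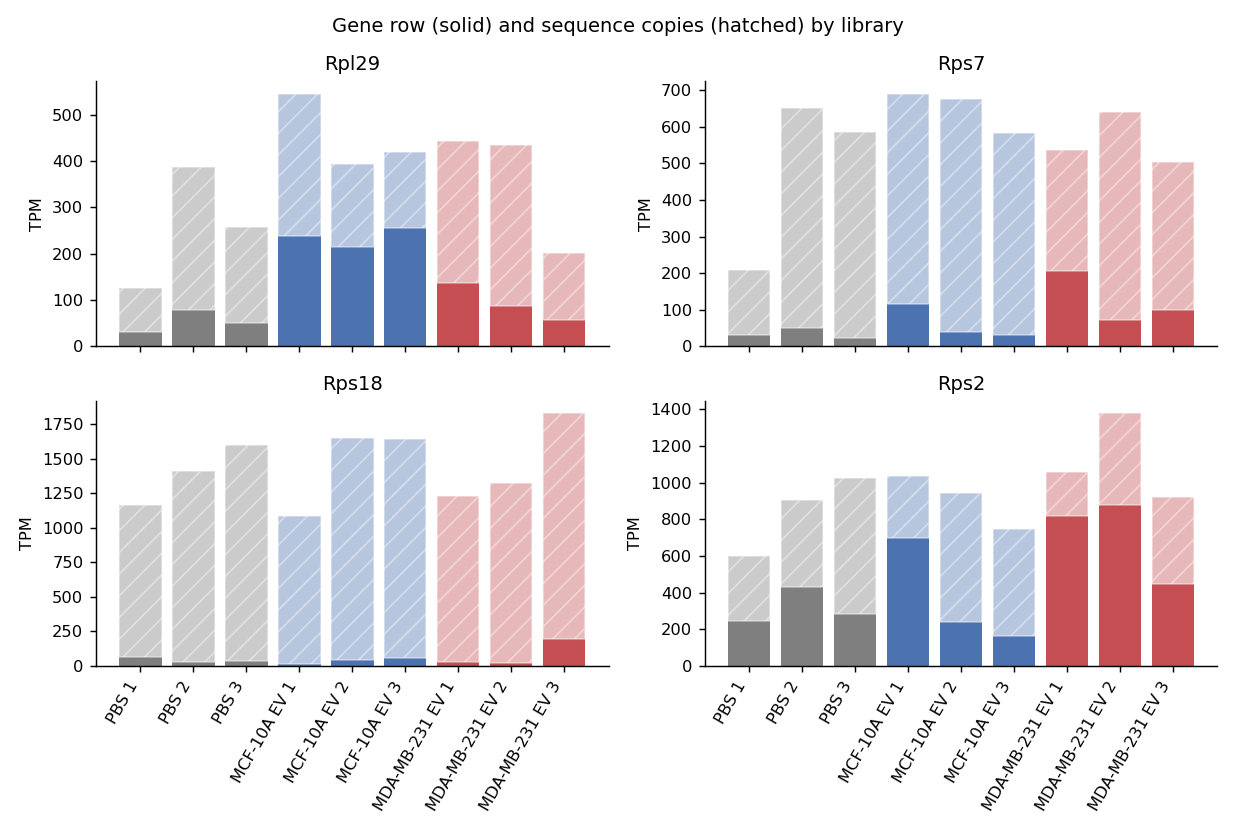
TPM per library on the gene row (solid) and on its sequence copies (hatched) for Rpl29, Rps7, Rps18 and Rps2. The gene row of Rpl29 is highest in the 3 MCF-10A EV libraries (214 to 256 TPM). With copies, its MCF-10A EV libraries (394 to 546 TPM) lie above PBS (127 to 388) and overlap MDA-MB-231 EV (201 to 443).

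A second fit took each library's median of the core genes as 0, so that it asked which members moved against the rest of the ribosomal protein mRNAs. By limma 0 members were called in each comparison. Of all genes, 0% were called between MDA-MB-231 EV and PBS, 0.14% between both EV groups and 0.21% between MCF-10A EV and PBS. At an unadjusted p under 0.05 there were 0, 3 and 1 members in the same order, where 1.3%, 2.41% and 3.3% of all genes passed. The 3 were Rpl29 (-1.42 ± 0.43), Rps12l1 (-1.34 ± 0.55) and Rps2 (1.18 ± 0.53), and the 1 was Rpl29 at 1.81 ± 0.43 (log2 difference ± SE; adjusted p = 0.293).

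Several members differed widely between libraries of the same group. Rps3, Rpl4, Rps4x and Rplp0 were at their highest, relative to the library's ribosomal median, in MDA-MB-231 EV 1 and MCF-10A EV 1. Rplp0, the stalk base that carries Rplp1 and Rplp2, held 76.3, 290 and 122 TPM in PBS, 436, 132 and 151 in MCF-10A EV, and 411, 469 and 159 in MDA-MB-231 EV. Rps4x, a small subunit protein with an X-linked gene, followed it with 72.9, 315 and 129 TPM in PBS, 407, 173 and 156 in MCF-10A EV, and 440, 359 and 162 in MDA-MB-231 EV. In both genes the 3 groups overlapped.

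Rpl28, Rpl14, Rpl38 and Rpl36 ran the other way. Rpl28 held 1061, 670 and 756 TPM in PBS, 295, 1069 and 1762 in MCF-10A EV, and 250, 552 and 1372 in MDA-MB-231 EV. Rpl38, a protein known for selective translation of Hox mRNAs, held 1556, 1337 and 1181 TPM in PBS, 863, 1783 and 2086 in MCF-10A EV, and 685, 1035 and 2708 in MDA-MB-231 EV. Rpl36 held 2084, 2024 and 2049 TPM in PBS, 1151, 2451 and 2892 in MCF-10A EV, and 1374, 1748 and 5486 in MDA-MB-231 EV. MCF-10A EV 1 and MDA-MB-231 EV 1 were the low libraries for these genes, and MDA-MB-231 EV 3 was the high one for Rpl36 and Rpl38.

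**Figure D5:**
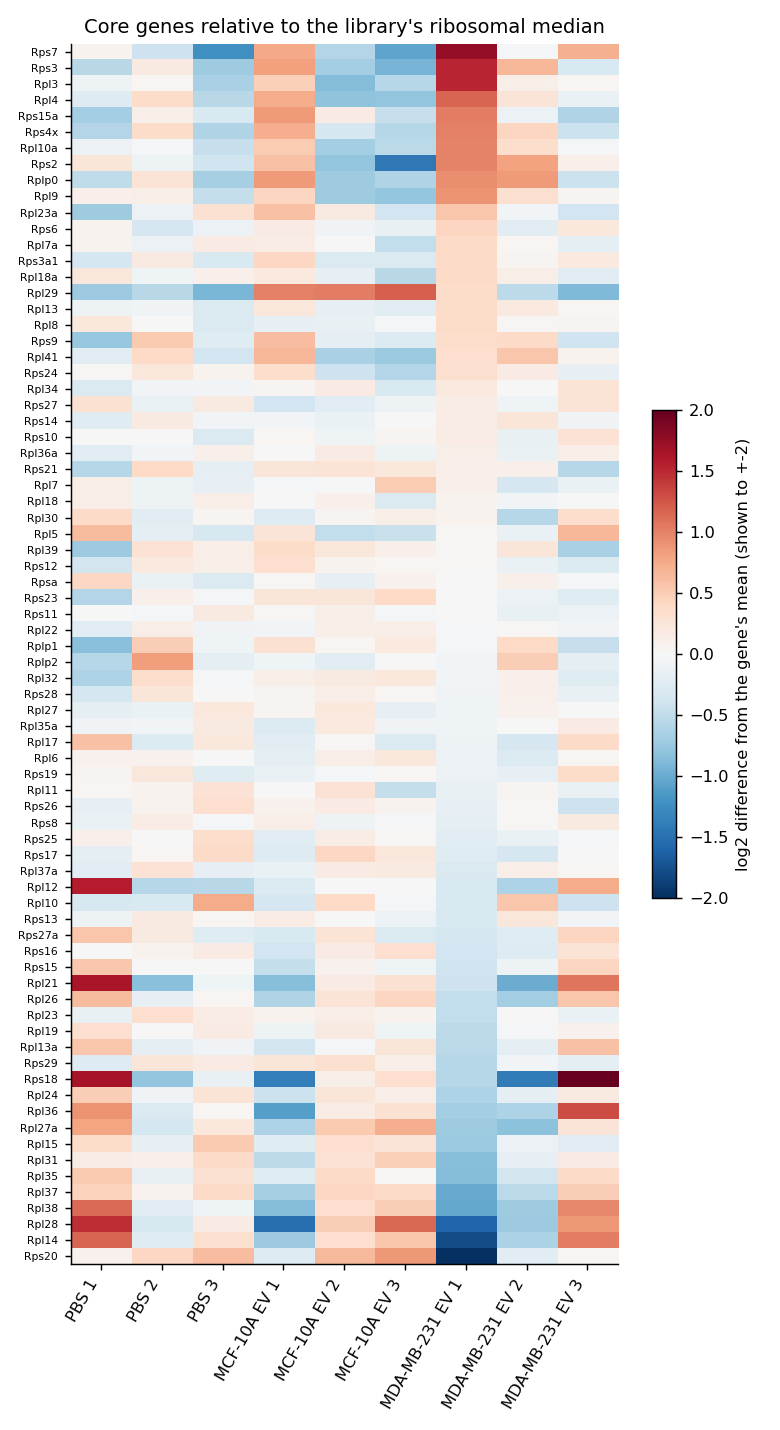
Log2(TPM + 1) of core genes in each library, relative to the library's ribosomal median and to the gene's mean, with genes ordered by their value in MDA-MB-231 EV 1. The top rows (Rps7, Rps3, Rpl3, Rpl4) are high and the bottom rows (Rps20, Rpl14, Rpl28, Rpl38) low in MDA-MB-231 EV 1.

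The following library measures stand beside these differences. The summed TPM of large subunit genes over that of small subunit genes was 2.06, 1.44 and 1.59 in PBS, 1.34, 1.65 and 1.77 in MCF-10A EV, and 1.31, 1.45 and 1.99 in MDA-MB-231 EV. It was lowest in MDA-MB-231 EV 1 and MCF-10A EV 1 and highest in PBS 1 and MDA-MB-231 EV 3. In the same 2 high libraries the 4 nuclear RNAs Malat1, Neat1, Xist and Meg3 summed to 548 and 601 TPM, against 18.8 to 227 in the others. Neat1, Xist and Meg3 were each highest in these 2 libraries. Malat1 was not, at 57.3 and 53.95 TPM there and 5.66 to 81.9 TPM in the others. The 8 erythroid markers, none at 0 in all libraries, summed to 786, 4175 and 1032 TPM in PBS, 16027, 1684 and 1019 in MCF-10A EV, and 4153, 2449 and 901 in MDA-MB-231 EV. Among these, MCF-10A EV 1 was highest, and MDA-MB-231 EV 1 lay beside PBS 2. Neutrophil markers summed to 5223 TPM in MCF-10A EV 1 and to at most 217 elsewhere, with 28.8 TPM in MDA-MB-231 EV 1. For the 77 core genes, the deviation of log2(TPM + 1) from the gene's mean over libraries, less the library's median deviation, was correlated with log2 coding length. The Pearson r was highest in MDA-MB-231 EV 1 (0.36) and MCF-10A EV 1 (0.20) and between -0.39 and 0.13 in the other libraries. It describes deviations, not levels, across genes of 1 library each. The part of these measures in the gene differences was not tested.

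Members known for roles outside the ribosome, in disease or in assembly were compared between MDA-MB-231 EV and PBS. None of them was called in this comparison, where 0% of all genes were, so this is no result about these members. Rpl5 and Rpl11, which with 5S rRNA form the particle that binds Mdm2, had log2 differences of MDA-MB-231 EV from PBS of 0.56 ± 0.40 and 0.20 ± 0.44 (SE). Rpl5 held 53, 67.1 and 48.7 TPM in PBS and 69.3, 75.2 and 109 in MDA-MB-231 EV, but 74.5% of its family lay on copies. With those copies Rpl5 summed to 117, 315 and 170 TPM in PBS and 402, 361 and 251 in MDA-MB-231 EV, which overlap. Rps19 and Rps14, whose loss gives Diamond-Blackfan anaemia and the anaemia of the 5q- syndrome, differed by 0.44 ± 0.42 and 0.56 ± 0.46. Rpl23 and Rpl10, the latter among the last to join the large subunit, differed by 0.090 ± 0.47 and 0.32 ± 0.55. Rps27a, made as a fusion with ubiquitin, differed by 0.19 ± 0.40, and Rpsa, which doubles as a laminin receptor, by 0.43 ± 0.37. All had an adjusted p of 1 by limma.

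The stalk protein Rplp1 held 315, 1754 and 951 TPM in PBS, 1552, 1146 and 1350 in MCF-10A EV, and 1090, 1776 and 809 in MDA-MB-231 EV. Its partner Rplp2 held 143, 835 and 331 TPM in PBS, 443, 360 and 450 in MCF-10A EV, and 404, 720 and 365 in MDA-MB-231 EV. Both were lowest in PBS 1 and high in PBS 2 and MDA-MB-231 EV 2, so the PBS group alone spanned nearly the whole range of each.

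The paralogs with the highest levels were Rpl36al and Rps27l. Rpl36al averaged 551 TPM over the 9 libraries, above its partner Rpl36a at 338 TPM, although 55.5% of the Rpl36a family lay on copies. Rps27l, a p53-induced paralog, averaged 468 TPM against 1126 for Rps27, with 124, 595 and 588 TPM in PBS, 411, 685 and 559 in MCF-10A EV, and 399, 646 and 209 in MDA-MB-231 EV. Rpl22l1 averaged 74.9 TPM against 343 for Rpl22, Rpl7l1 16.3 against 360 for Rpl7, and Rps4l 7.47 against 246 for Rps4x. Paralogs known from muscle and testis were nearly silent. Rpl3l, the striated muscle form of Rpl3, was at most 0.09 TPM in 8 libraries and 5.04 TPM in MDA-MB-231 EV 3. Rpl39l was at most 0.44 TPM, and Rpl10l was listed at 0 in every library.

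Among tested members, the SD of log2 values over libraries was smallest for Rpl17 (0.21), which ranged from 430 to 732 TPM, then for Rpl30 (0.27) and Rps19bp1 (0.28). It was largest for Rps27rt, an intronless copy of Rps27, at 1.83, then for Rpl29 (1.08) and Rps18 (1.06). Rps27rt held 56.9 TPM in MDA-MB-231 EV 1 and at most 4.2 TPM in the other 8 libraries, where 3 libraries listed it at 0.

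Genes of the same machinery were described by lists, and limma called no gene of any of them in any comparison. Of all genes, 0% were called between MDA-MB-231 EV and PBS, 0.218% between both EV groups and 0.194% between MCF-10A EV and PBS. With shares this low, the absence of calls is no result about the lists. Of 20 translation factors with TOP mRNAs, 19 had higher values in MDA-MB-231 EV than in PBS and 18 in MCF-10A EV than in PBS, with median log2 changes of 0.55 and 0.27. In these comparisons, 17 and 18 of the 20 exceeded the median of all tested genes. Their summed level was 2567 TPM in PBS 1, 5506 in PBS 2, 4555 in PBS 3 and 3838 to 8265 in the EV libraries. Eef2, the elongation factor of translocation, differed by 1.39 ± 0.72 and Eef1a1, which delivers aminoacyl-tRNA, by 1.09 ± 0.60 in the first of these. Of 22 other initiation factor genes, 20 and 18 had higher values in the same comparisons, with medians of 0.54 and 0.26, and 16 in each exceeded the median of all tested genes. The 22 genes summed to 685 TPM in PBS 1, 1694 in PBS 2, 1249 in PBS 3 and 1114 to 1811 in the EV libraries. PBS 1 was the lowest library for both lists, and its part in their counts was not tested. Of 36 tested ribosome biogenesis genes, 33 had higher values in MDA-MB-231 EV than in PBS (median 0.40) and 35 higher than in MCF-10A EV (median 0.39). In the same order, 27 and 28 of the 36 exceeded the median of all tested genes. Between MCF-10A EV and PBS, 19 of the 36 had higher values in the former (median 0.037). The 37 listed biogenesis genes summed to 1068 TPM in MDA-MB-231 EV 3 and to 450 to 611 TPM in the other 8 libraries, and the part of that library was not tested. Polr1c, a shared subunit of RNA polymerases I and III, differed from PBS by 1.63 ± 0.58 in MDA-MB-231 EV (limma adjusted p = 1). The median of all tested genes was 0.21, 0.17 and 0.07 in these 3 comparisons.

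Among the genes that control these mRNAs, Mtor had the smallest p in both comparisons that include MCF-10A EV. Mtor, the kinase upstream of TOP mRNA translation, was 1.69 ± 0.37 higher in MDA-MB-231 EV than in MCF-10A EV on the log2 scale (limma adjusted p = 0.273) and differed by -1.59 ± 0.37 between MCF-10A EV and PBS (adjusted p = 0.279). It held 2.83 to 5.3 TPM in the MCF-10A EV columns, which are also those without assembled loci, and 10.7 to 18.3 TPM in the others. Rheb differed the other way in these comparisons, by -0.84 ± 0.35 and 0.82 ± 0.35. Across the 16 genes of this list the medians were 0.25 between MDA-MB-231 EV and PBS, 0.22 between both EV groups and -0.079 between MCF-10A EV and PBS. In the same order, the 10 tested genes of p53 and its targets had medians of 0.14, -0.039 and 0.23, and the 14 genes of ribosome quality control 0.11, 0.26 and -0.039. The 11 tested snoRNA host genes had medians of 0.26, 0.49 and -0.24, and the list summed to 1171 TPM in MDA-MB-231 EV 3, 675 in PBS 1 and 287 to 446 in the others. The 78 mitochondrial ribosomal proteins, which build the separate ribosome of mitochondria, had medians of 0.17, 0.081 and 0.10, and the 38 proteasome subunits, another large complex, 0.35, 0.0091 and 0.28.

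The tested genes outside the set whose log2 values ran closest to the median of the core genes over the 9 libraries were Commd5 (Pearson r = 0.959), Ufm1 (0.955), Gm45799 (0.954), Atp5mpl (0.952) and Coq7 (0.945). All 5 have their lowest value in PBS 1, as the core median does. Ufm1, a ubiquitin-like modifier, held 7 TPM in PBS 1 and 16.5 to 29.9 TPM in the other 8 libraries. Atp5mpl, a subunit of the mitochondrial ATP synthase, held 114 TPM in PBS 1 and 312 to 641 TPM in the others. Of the ribosomal proteins outside the rule, Rack1 held 146 TPM in PBS 1 and 303 to 496 in the others, and Fau held 406 in PBS 1 and 653 to 980 in the others.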

How the data were processed

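Liver RNA was sequenced from TruSeq libraries made with 1 ug of total RNA, per the labels' protocols. The authors deposited 1 table of TPM for all 9 libraries. Per the submitters' processing notes, HISAT2, StringTie, RSEM and GRCm39 were used; versions and order are not given in the sources used here. Groups were taken from the sample titles. R 4.3.3 and limma 3.58.1 were used to fit log2(TPM + 1) of the 12860 genes whose mean reached 1 TPM (3 groups together, trended prior variance, Benjamini-Hochberg adjustment over all of them), first on the TPM scale and then relative to each library's median of core ribosomal protein genes. The method was tested on simulated data. Copies were found with blastn 2.17.0+ in GENCODE M21 (GRCm38) and matched to the table by Ensembl identifier; protein-coding genes without "-ps" in the symbol were not counted. Start-site windows came from RefSeq.

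The members and gene lists were chosen with earlier results of these data known, and 5 retained copies were added to the paralogs after the table was seen. Genes named were every called member or else the 4 with the smallest p per fit, fixed members and paralog pairs, the 5 highest and lowest by level, the 3 with the largest and smallest spread, up to 3 per list, and the 5 nearest to the core median. Rpl4, Rpl8, Rpl14, Rpl21, Rpl27a, Rpl28, Rpl34, Rps12 and the copies were named after their values were seen. Some genes are not reported here by name, and 1 core gene is left out of the heatmap. Deviations of same-numbered libraries from their group means correlated at 0.34, 0.11 and 0.44 in the 3 pairs of both EV groups. These correlations are at most a hint of pairing from the data, since no label says what a number shares. The main fits used no pairing, and the replicate block was fitted only as an alternative. Same-numbered pairs with PBS correlated between -0.39 and 0.50, with 1 of 6 over 0.1. Libraries of unlike number correlated between -0.34 and 0.12 across the EV groups, and PBS 1 and MDA-MB-231 EV 3 at 0.62. The alternatives were pseudocounts, filters, rescalings, weights, a replicate block, libraries left out and copies added.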

Additional observations from a re-analysis of the deposited data

How the results depend on the processing

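By limma no member was called under any alternative other than library weights, where 2 members were called in MCF-10A EV against PBS, in both fits. The share of all genes called with library weights is not given here, so the 2 calls are no result about the members as a set. Those weights were estimated without convergence and gave PBS 3 a weight of 45.0 against 0.158 to 3.05 for the others. With a library left out, the median log2 change of members ranged from 0.052 to 0.61 for MDA-MB-231 EV against PBS, from -0.11 to 0.081 against MCF-10A EV, and from 0.056 to 0.67 in MCF-10A EV against PBS; the low ends of both ranges against PBS are without PBS 1. Between MDA-MB-231 EV and PBS the median was 0.032 with PBS 1 and MDA-MB-231 EV 3 left out together and 0.0069 with copies added and PBS 1 left out. It was 0.14 there and 0.24 in MCF-10A EV against PBS after quantile normalization, and 0.28 and 0.27 without mitochondrially encoded genes in the total. The mean core sum with all copies was 48196 TPM for PBS, 58514 for MCF-10A EV and 57628 for MDA-MB-231 EV. In both EV groups, in the same order, they were 52991 and 52965 with named pseudogenes and 50140 and 50291 without mitochondrially encoded genes; in MCF-10A EV the mean was 46373 with Ensembl genes rescaled.

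Of 3300 values of named members under alternatives, 231 changed sign. Where the value had been at least its SE from 0, this held for Rps7 against MCF-10A EV (-0.22 with named pseudogenes or all copies added, and -0.22 with copies and without PBS 1), Rps7 against PBS in MDA-MB-231 EV (-0.15 with copies and without PBS 1), and, in MCF-10A EV against PBS, Rpl22l1 (-0.28 with library weights) and Rplp1 (-0.0026 with copies and without PBS 1). The cause was not tested beyond these constructions. With a replicate block over all 3 groups, 0 members were called, with 0, 15 and 20 genes in all in the order MDA-MB-231 EV and PBS, both EV groups, MCF-10A EV and PBS. With a replicate block in the 2 groups compared alone, added after seeing the data, 0 members were called, with 0, 12 and 21 genes in all. The files give no read depth, so counting error of single values is unknown. The SE of a member's log2 difference on the TPM scale was at least 0.36, and differences several times that size went uncalled with 3 libraries a group. Rpl29 in MCF-10A EV against PBS, at 2.22 ± 0.46, had a limma adjusted p of 0.164. Rps7 in MDA-MB-231 EV against PBS, at 1.75 ± 0.59, was not called either.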
